A study of Sus scrofa with 24 samples.

Results

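CLUAP1, MLH3, MTSS1, RTL4 and SPTB are 5 of the 13463 genes counted in pig liver, and were chosen by their expression, because each changed in the same direction in uncastrated boars that had received no Sustanon and in animals treated with Sustanon. These 2 comparisons therefore define the genes and are described here without a test. All 5 genes were among the 8754 that passed the filter on low counts. The data were RNAseq libraries of liver from 24 Large White × Landrace × Duroc pigs, 1 library per pig. Sustanon, a mixture of testosterone esters, had been injected into muscle repeatedly, each time at 4 mg/kg, in 3 castrated boars, 3 sows and 2 uncastrated boars. The females, labelled sows, were gilts in the study, that is, young females before a first litter. Myodin, a preparation of the testosterone relative nandrolone, had been injected on the same schedule at 5 mg/kg in 2 castrated boars, 3 sows and 3 uncastrated boars. The 3 castrated boars, 3 sows and 2 uncastrated boars of the control group received neither. Controls and treated groups were housed apart, so treatment and housing cannot be told apart.

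Testosterone acts through the androgen receptor, a transcription factor that is present in liver. The testes of an uncastrated boar are a natural source of testosterone, while castrated boars and sows make little. The 5 genes belong to unrelated machineries. CLUAP1 is a subunit of the IFT-B complex, which carries cargo along cilia. MTSS1 is an inverse-BAR protein that bends the plasma membrane and binds actin. MLH3 is a MutL-type protein of DNA mismatch repair and meiotic crossing over. RTL4 derives from the Gag gene of a retrotransposon. SPTB is the beta spectrin of the red blood cell membrane skeleton.

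On the Sscrofa11.1 build, RefSeq places CLUAP1 at chr3:38716562-38753743, MTSS1 at chr4:14933290-15103256, SPTB at chr7:88812717-88954471 and RTL4 at chrX:91920451-92333326. These are the whole gene spans and measure 37.2, 170.0, 141.8 and 412.9 kb.

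Library totals were between 9267780 and 14017276 counts. The hepatocyte markers ALB, APOA1, TTR and SERPINA1 summed to between 79334 and 195137 CPM, TMM-normalised read counts scaled to the library total, in a library. In uncastrated boars without Sustanon the sum lay between 79334 and 136667 CPM. In castrated boars without Sustanon it lay between 138106 and 187680 CPM. Among castrated boars and sows it was between 101103 and 187680 CPM in controls and between 119513 and 195137 CPM with Sustanon. Its part in the levels of the 5 genes was not tested. The skeletal muscle markers CKM, MYH7 and TNNT3 summed to between 0.43 and 3.16 CPM. Y-linked genes went against the label in 3 libraries. The library labelled control castrated boar 15 had 1 count of EIF1AY and 0 of KDM5D, while the libraries labelled control sow 16 and control sow 18 had 476 and 434 counts of EIF1AY. The study's own heatmap leaves out control castrated boar 15 without a stated reason. Because all 3 are controls of the comparisons below, some values are also given without them. In bulk tissue, fewer cells of a type and less RNA per cell cannot be told apart.

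In all 5 genes, the 11 castrated boars and sows without Sustanon stood on one side and most of the 13 uncastrated or Sustanon-treated animals on the other. CLUAP1, MLH3 and MTSS1 were higher in the 13, at 2.49, 2.55 and 2.12 times the mean CPM of the 11. RTL4 and SPTB were lower, with a mean in the 11 that was 3.14 and 3.37 times that of the 13. Per length, in TPM (transcript abundance relative to the library), MTSS1 was the most abundant of the 5, with a median of 29.3 TPM in the 11 libraries and 70.5 TPM in the 13. CLUAP1 followed with 11.8 and 32.7 TPM, and MLH3 with 4.53 and 10.6 TPM. RTL4 had medians of 1.24 and 0.37 TPM and SPTB of 0.42 and 0.10 TPM, so both were scarce in every group.

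**Figure D1:**
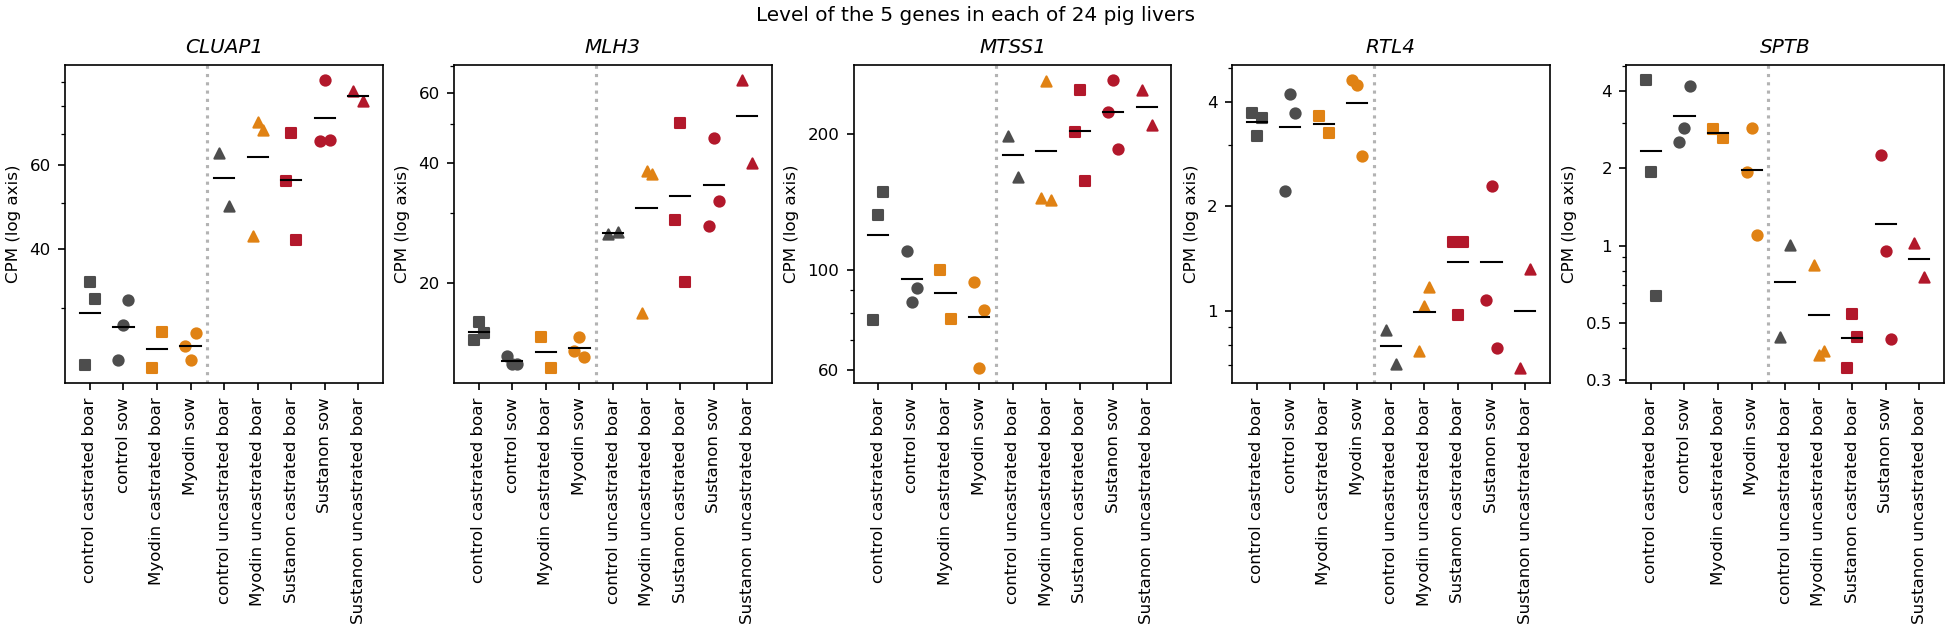
CPM on a log axis (vertical) of each gene in each of the 24 libraries by group (horizontal), with 1 point per pig and a bar at the group mean; squares are castrated boars, circles sows and triangles uncastrated boars, in grey for control, orange for Myodin and red for Sustanon. The 11 libraries left of the dotted line lie below all others for CLUAP1 and MLH3, while for MTSS1, RTL4 and SPTB the sets overlap.

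CLUAP1, the IFT-B subunit, was at 22.7, 34.0 and 31.3 CPM in control castrated boars 13, 14 and 15 and at 23.3, 27.5 and 31.2 CPM in control sows 16, 17 and 18. After Sustanon it was at 55.7, 70.2 and 41.8 CPM in castrated boars 1, 2 and 3 and at 67.7, 91.1 and 68.1 CPM in sows 4, 5 and 6. All 6 Sustanon animals were thus above all 6 controls, as in 2% of all genes (1.27% lay wholly below), with means of 65.8 ± 16.4 against 28.3 ± 4.62 CPM (SD, n = 6 each). In uncastrated boars without Sustanon it was at 63.8 and 49.3 CPM in controls 25 and 27 and at 42.5, 74.1 and 71.2 CPM in Myodin animals 22, 23 and 24. These 5 stood above all 5 castrated boars without Sustanon, as in 1.46% of all genes (2.03% lay wholly below), and those castrated boars had a mean of 27.4 ± 5.16 CPM (SD, n = 5). The 2 Sustanon uncastrated boars, at 86.3 and 82.3 CPM, were among the highest 3 of the 24 libraries, together with Sustanon sow 5. The log2 fold change was 1.20 (SE 0.16) for Sustanon in castrated boars and sows against their controls. It was 1.15 (SE 0.17) for uncastrated against castrated boars without Sustanon, where control and Myodin groups were averaged with equal weight.

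MTSS1, the membrane-bending protein, was at 77.4, 132 and 149 CPM in control castrated boars 13, 14 and 15 and at 110, 84.7 and 91.0 CPM in control sows 16, 17 and 18. Sustanon castrated boars 1, 2 and 3 had 202, 249 and 157 CPM and Sustanon sows 4, 5 and 6 had 223, 263 and 185 CPM. The Sustanon animals again all lay above the controls, as in 2% of all genes (1.27% lay wholly below). The means were 213 ± 39.97 against 107 ± 28.3 CPM (SD, n = 6 each). Among uncastrated boars, controls 25 and 27 had 198 and 160 CPM and Myodin animals 22, 23 and 24 had 144, 261 and 143 CPM. Here 3 of the 5 were above every castrated boar without Sustanon, and the other two were below the 149 CPM of the library labelled control castrated boar 15, which was the highest of the 11. The 2 Sustanon uncastrated boars had 250 and 209 CPM. The log2 fold change was 0.999 (SE 0.19) for Sustanon and 0.81 (SE 0.21) for uncastrated against castrated boars, the smallest of the 5 genes in both.

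MLH3, the mismatch repair protein, varied little among the 11 libraries, between 12.2 and 15.95 CPM. It was at 14.4, 15.95 and 14.96 CPM in control castrated boars 13, 14 and 15 and at 13.1, 12.5 and 12.5 CPM in control sows 16, 17 and 18. After Sustanon it was at 28.8, 50.2 and 20.1 CPM in castrated boars 1, 2 and 3 and at 27.7, 46.1 and 31.996 CPM in sows 4, 5 and 6. The Sustanon animals all lay above the controls, as in 2% of all genes (1.27% lay wholly below). The spread was wider with Sustanon (34.1 ± 11.6 CPM) than without (13.9 ± 1.42 CPM, SD, n = 6 each). In uncastrated boars it was at 26.5 and 26.8 CPM in controls 25 and 27 and at 16.8, 38.1 and 37.4 CPM in Myodin animals 22, 23 and 24. Myodin uncastrated boar 22, at 16.8 CPM, was the lowest of the 13 and lay just above the 15.95 CPM of the highest castrated boar. Such a lack of overlap between uncastrated and castrated boars was seen in 1.46% of all genes (2.03% lay wholly below). The highest of all 24 was Sustanon uncastrated boar 19, at 64.7 CPM, and Sustanon uncastrated boar 20 had 39.96 CPM. The log2 fold change was 1.30 (SE 0.22) for Sustanon and 1.01 (SE 0.24) for uncastrated against castrated boars.

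RTL4, the Gag-derived gene, was at 3.71, 3.19 and 3.61 CPM in control castrated boars 13, 14 and 15 and at 2.22, 4.21 and 3.71 CPM in control sows 16, 17 and 18. After Sustanon it was at 1.59, 0.972 and 1.59 CPM in castrated boars 1, 2 and 3 and at 1.07, 2.30 and 0.782 CPM in sows 4, 5 and 6. Of the 6 Sustanon animals 5 were below every control, and Sustanon sow 5 was just above the library labelled control sow 16. Uncastrated boars had 0.884 and 0.704 CPM in controls 25 and 27 and 0.768, 1.04 and 1.17 CPM in Myodin animals 22, 23 and 24. All were below the 5 castrated boars (3.48 ± 0.240 CPM, SD, n = 5), as in 2.03% of all genes (1.46% lay wholly above). The 2 Sustanon uncastrated boars had 0.684 and 1.32 CPM. These levels rest on 7 to 60 counts per library, and the lowest count of 7 has a 95% Poisson interval of 2.81 to 14.4, for counting error only. The log2 fold change was -1.31 (SE 0.26) for Sustanon and -1.96 (SE 0.31) for uncastrated against castrated boars.

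SPTB, the erythroid spectrin, was the scarcest and most variable of the 5, with 4 to 45 counts per library. The lowest count of 4 has a 95% Poisson interval of 1.09 to 10.2. It was at 4.42, 1.94 and 0.636 CPM in control castrated boars 13, 14 and 15 and at 2.52, 2.88 and 4.17 CPM in control sows 16, 17 and 18. Sustanon castrated boars 1, 2 and 3 had 0.334, 0.540 and 0.440 CPM and Sustanon sows 4, 5 and 6 had 2.26, 0.956 and 0.435 CPM. The groups overlapped. The library labelled control castrated boar 15 was as low as the Sustanon animals, and Sustanon sow 4 lay within the range of the controls. Uncastrated boars had 0.442 and 1.01 CPM in controls 25 and 27 and 0.844, 0.377 and 0.390 CPM in Myodin animals 22, 23 and 24, and 3 of these 5 were below every castrated boar without Sustanon. The 2 Sustanon uncastrated boars had 1.03 and 0.754 CPM. The log2 fold change was -1.91 (SE 0.44) for Sustanon and -1.99 (SE 0.49) for uncastrated against castrated boars. The spread of log2 CPM within groups was 0.69 (SD) for SPTB, against 0.28 for CLUAP1, 0.34 for MTSS1, 0.40 for MLH3 and 0.41 for RTL4.

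Markers of red blood cells were examined beside SPTB. HBB, ALAS2, AHSP and EPB42, the 4 of 6 listed markers in the table, summed to between 879 and 2423 CPM in the 6 control castrated boars and sows and between 462 and 1895 CPM in the 6 with Sustanon. The sum was between 171 and 1765 CPM in uncastrated boars without Sustanon and between 537 and 1758 CPM in castrated boars without Sustanon. Their median log2 fold change was -0.64 for Sustanon and -0.53 for uncastrated against castrated boars, and none of the 4 had an unadjusted p below 0.05 or was called in either comparison by edgeR, DESeq2 or limma, with adjusted p of 0.446 for HBB and 0.390 for ALAS2 under Sustanon by edgeR's quasi-likelihood test. No marker of the 4 was at 0 in every library. In the 2 Sustanon uncastrated boars, with SPTB between 0.754 and 1.03 CPM, the sum was 1370 and 2260 CPM. In the 3 Myodin uncastrated boars, with SPTB between 0.377 and 0.844 CPM, it lay between 171 and 937 CPM. The part of red blood cells in the SPTB difference was not tested.

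Markers of stellate and stromal cells (COL1A2, DCN and LUM, 3 of 7 listed) had a median log2 fold change of 0.81 for Sustanon and 0.56 for uncastrated against castrated boars, with 0 of 3 called by edgeR, DESeq2 or limma and 2 of 3 below 0.05 unadjusted for Sustanon, as were 19.8% of all genes. They summed to between 73.3 and 208.5 CPM in the 6 controls and between 166 and 300.1 CPM in the 6 Sustanon castrated boars and sows. Markers of bile duct cells (KRT7 and EPCAM, 2 of 5 listed) had median log2 fold changes of -0.20 and -0.12 in these comparisons. Those of leukocytes (CD163, CD3E and CSF1R, 3 of 7) had 0.0035 and 0.33. Those of endothelium (VWF, KDR and LYVE1, 3 of 5) had -0.14 and 0.20, and edgeR called 0 of all these markers. The part of these cell types in the higher levels of CLUAP1, MTSS1 and MLH3 was not tested.

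A gene was called in a comparison when edgeR's quasi-likelihood test, with Benjamini-Hochberg adjustment over all 8754 genes, gave an adjusted p below 0.05 and the log2 fold change was 1 or more in size. For Sustanon in castrated boars and sows 2.03% of all genes were called, and 4 of the 5 members. The exception was MTSS1, whose fold fell just short of that limit. For uncastrated against castrated boars without Sustanon 0.331% were called, with CLUAP1 and RTL4 among them. Over all genes 18 (0.206%) were called in both comparisons, all 18 in the same direction, 10 higher and 8 lower. These comparisons share the 3 control castrated boars. Nothing is read from these counts, since the same comparisons chose the genes.

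Over all tested genes, 6 (0.0685%) lay wholly higher in the 13 uncastrated or Sustanon-treated animals than in the 11 others, CLUAP1 and MLH3 among them, and 9 (0.103%) wholly lower. MTSS1 was above all 11 in 11 of the 13, RTL4 below all 11 in 12, and SPTB below all 11 in 7. Without the 3 libraries whose Y-linked counts went against their labels, an alternative added after the data were seen, CLUAP1, MLH3 and MTSS1 lay above all of the remaining 8 in 13 of 13 animals. RTL4 then lay below all 8 in 13 of 13 animals and SPTB in 12 of 13, with Sustanon sow 4 as the exception. Over all genes this setting left 13 genes (0.149%) wholly higher and 16 (0.183%) wholly lower. Without these 3 libraries the log2 fold changes for Sustanon were 1.22 for CLUAP1, 1.31 for MLH3, 1.18 for MTSS1, -1.45 for RTL4 and -2.06 for SPTB. For uncastrated against castrated boars without Sustanon, SPTB came to -2.22 without them, in place of -1.99.

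In uncastrated boars, the 2 Sustanon animals were compared with the 2 controls, again without a test because Sustanon-treated animals entered the choice of the genes. The log2 fold changes were 0.58 (SE 0.26) for CLUAP1, 0.97 (SE 0.36) for MLH3, 0.36 (SE 0.32) for MTSS1, 0.32 (SE 0.52) for RTL4 and 0.32 (SE 0.80) for SPTB. For CLUAP1 and MLH3 both Sustanon animals were above all 5 uncastrated boars without Sustanon, as in 6.04% of all genes. MLH3 was at 64.7 and 39.96 CPM in them, at 26.5 and 26.8 CPM in the controls and at most at 38.1 CPM in the 3 Myodin animals. RTL4 and SPTB, which were lower with Sustanon in castrated boars and sows, were not lower here, but with single animals left out RTL4 came to -0.22 without Sustanon uncastrated boar 20 and SPTB to -0.15 without control uncastrated boar 25. In this comparison 0% of all genes were called by edgeR, 974 genes had an unadjusted p below 0.05, and DESeq2 called 44.

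**Figure D2:**
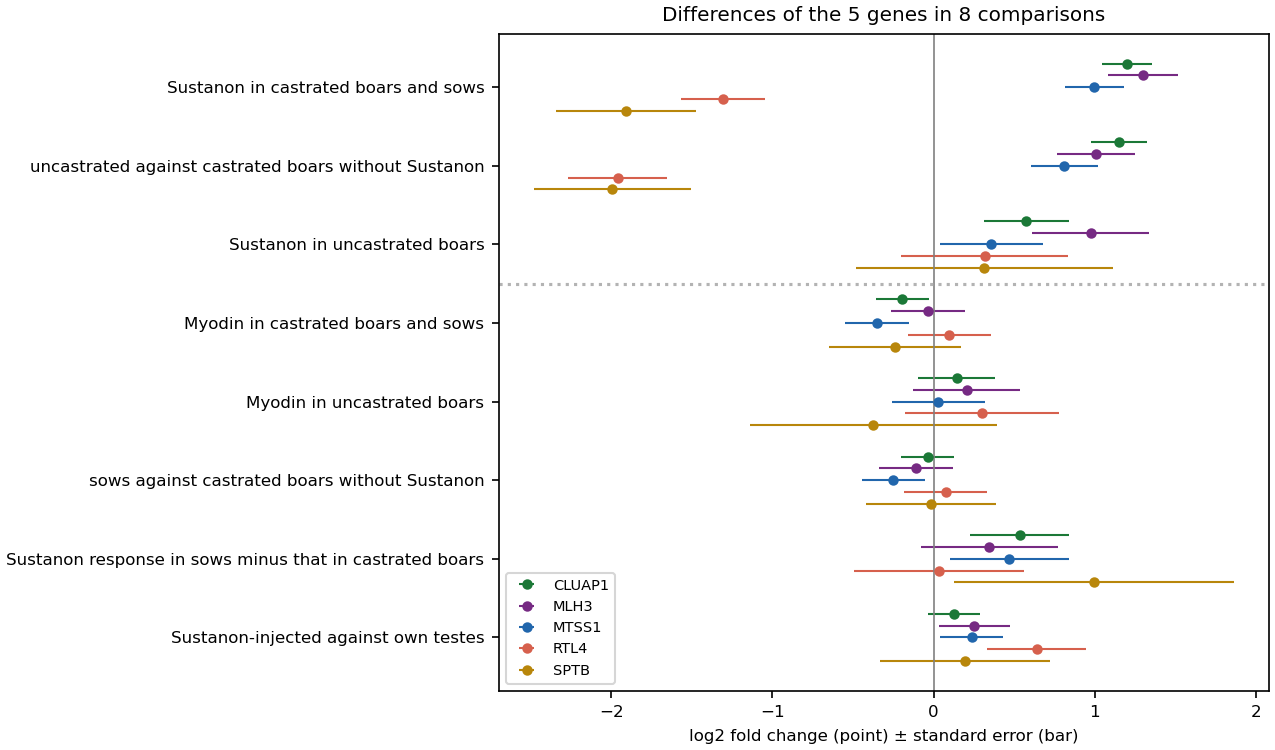
Log2 fold change (horizontal, point) with its standard error (bar) of the 5 genes in 8 comparisons (vertical). Of the 3 comparisons above the dotted line, the first 2 define the genes. The third holds Sustanon-treated animals, which entered the choice, and is likewise described without a test. The last comparison sets the animals that chose the genes against each other. The genes separate in the first 2 comparisons, between -1.99 and 1.30, and lie between -0.37 and 0.99 below the dotted line.

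The comparisons of Myodin with control and of sows with castrated boars were not those that chose the genes, though they share libraries with them. Each sets apart some animals that the comparisons that chose the genes averaged on one side, so the choice may bear on how alike their levels are. The Myodin sows were in neither of the comparisons that chose the genes. A lack of calls in them is therefore not independent of the choice. The first asked whether Myodin moved the 5 genes in castrated boars and sows, where 0.0343% of all genes were called. None of the 5 was called by edgeR, by DESeq2 or by limma, and 0 of the 5 had an unadjusted p below 0.05 in edgeR. MTSS1 had the lowest p, at a log2 fold change of -0.35 (95% interval -0.76 to 0.06, edgeR adjusted p = 0.562), with 99.8 and 78.0 CPM in Myodin castrated boars 8 and 9 and 94.1, 60.5 and 81.5 CPM in Myodin sows 10, 11 and 12. CLUAP1 had a log2 fold change of -0.20 (95% interval -0.54 to 0.15), and its 5 Myodin values lay between 22.3 and 26.7 CPM, within the range of the 6 controls but for the lowest. The intervals were -0.51 to 0.45 for MLH3, -0.44 to 0.64 for RTL4 and -1.10 to 0.62 for SPTB. For CLUAP1, MLH3 and MTSS1 the upper bounds correspond to 1.11, 1.36 and 1.04 times the control level. Without the 3 libraries that went against their labels the log2 fold changes were -0.17 for MTSS1, -0.17 for CLUAP1, -0.022 for MLH3, -0.045 for RTL4 and -0.39 for SPTB, none of them called. This comparison shares its 6 controls with that of Sustanon.

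Myodin in uncastrated boars, 3 animals against 2, called 0.0228% of all genes and 0 of the 5, also by DESeq2 and limma, with 0 of 5 below 0.05 unadjusted in edgeR. The log2 fold changes lay between -0.37 (SPTB, 95% interval -1.98 to 1.23) and 0.30 (RTL4, 95% interval -0.70 to 1.30), and edgeR's adjusted p between 0.885 and 0.985. The 3 Myodin animals did not behave alike, since number 22 had 42.5 CPM of CLUAP1 and 16.8 CPM of MLH3 while numbers 23 and 24 had 74.1 and 71.2 CPM of CLUAP1 and 38.1 and 37.4 CPM of MLH3. Without number 22 the log2 fold change of MLH3 was 0.50 and that of CLUAP1 0.36, in place of 0.20 and 0.14. In the study's serum measurements no testosterone was found in number 22, while numbers 23 and 24 had low levels. The study also lists nandrolone in the serum of control uncastrated boar 27. The part of serum steroids in these levels was not tested.

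Sows were compared with castrated boars, both without Sustanon, and 0% of all genes were called by edgeR, with 687 genes below 0.05 unadjusted and 3 called by DESeq2. None of the 5 was called by edgeR, DESeq2 or limma, or had an unadjusted p below 0.05 in edgeR. CLUAP1 had a log2 fold change of -0.04 (95% interval -0.38 to 0.31), MLH3 of -0.11 (95% interval -0.59 to 0.37) and MTSS1 of -0.25 (95% interval -0.66 to 0.16). RTL4, which is X-linked, had a log2 fold change of 0.07 (95% interval -0.47 to 0.61), and SPTB of -0.02 (95% interval -0.86 to 0.83). Without the 3 libraries that went against their labels the values were -0.010 for CLUAP1, -0.12 for MLH3, -0.24 for MTSS1, 0.24 for RTL4 and -0.32 for SPTB, none of them called.

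The response to Sustanon was also compared between sows and castrated boars, by an interaction term over the same 12 libraries as the Sustanon comparison, and 0% of all genes were called, with 317 genes below 0.05 unadjusted and 0 called by DESeq2. Of the 5, 0 were called by edgeR, DESeq2 or limma, and 0 had an unadjusted p below 0.05. Those 12 libraries also served to choose the genes, so this lack of calls is not independent of the choice. The difference in log2 fold change, sows minus castrated boars, was 0.53 for CLUAP1 (95% interval -0.11 to 1.18, edgeR adjusted p = 0.999997), 0.47 for MTSS1 (95% interval -0.30 to 1.24), 0.35 for MLH3 (95% interval -0.54 to 1.24), 0.03 for RTL4 (95% interval -1.06 to 1.13) and 0.99 for SPTB (95% interval -0.82 to 2.81). With 3 animals per group, these intervals leave room for differences of more than 2.19-fold in each gene. Without the 3 libraries that went against their labels the difference was -0.30 for RTL4 and 1.59 for SPTB.

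Castrated boars and sows injected with Sustanon were also set beside uncastrated boars with their own testes and no Sustanon. Both sets served to choose the genes, which favours similar levels, so the values are a description without a test. CLUAP1 had a mean of 65.8 ± 16.4 CPM (SD, n = 6) in the injected animals and 60.2 ± 13.8 CPM (SD, n = 5) in the uncastrated boars, at a log2 fold change of 0.13 (SE 0.16). The log2 fold changes were 0.25 (SE 0.22) for MLH3, 0.24 (SE 0.20) for MTSS1 and 0.20 (SE 0.52) for SPTB. RTL4 had the largest, 0.64 (SE 0.31), with 1.38 ± 0.555 CPM (SD, n = 6) in the injected animals and 0.913 ± 0.192 CPM (SD, n = 5) in the uncastrated boars. The ranges of the 2 sets overlapped for all 5 genes.

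The genes were then followed among themselves. In the 13 uncastrated or Sustanon-treated animals, log2 CPM of CLUAP1 and MLH3 had a Pearson r of 0.88 (permutation p = 7.0e-05, adjusted p = 0.0014 over 20 relations) and a Spearman rho of 0.90 (adjusted permutation p = 0.0016), and r was 0.77 without the 2 animals farthest from the median of CLUAP1. CLUAP1 with MTSS1 had an r of 0.74 (adjusted permutation p = 0.0365) and a rho of 0.70 (adjusted permutation p = 0.0669), and MLH3 with MTSS1 an r of 0.72 (adjusted permutation p = 0.0365) and a rho of 0.71 (adjusted permutation p = 0.0669). Without the 2 farthest animals these were 0.58 and 0.60. RTL4 and SPTB had r between -0.14 and 0.20 with each other and with the other three in these 13 animals, none past the threshold. In the 11 castrated boars and sows without Sustanon none of the 10 relations passed it, and CLUAP1 with MLH3 had an r of 0.11 (adjusted permutation p = 0.876). The difference between the sets was not tested. Each set holds several groups, and the permutation moved values freely between them. These p-values therefore also reflect differences between group means. After subtracting the group means over all 24 libraries, r was 0.75 for CLUAP1 with MLH3 and 0.60 for CLUAP1 with MTSS1, without a test.

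**Figure D3:**
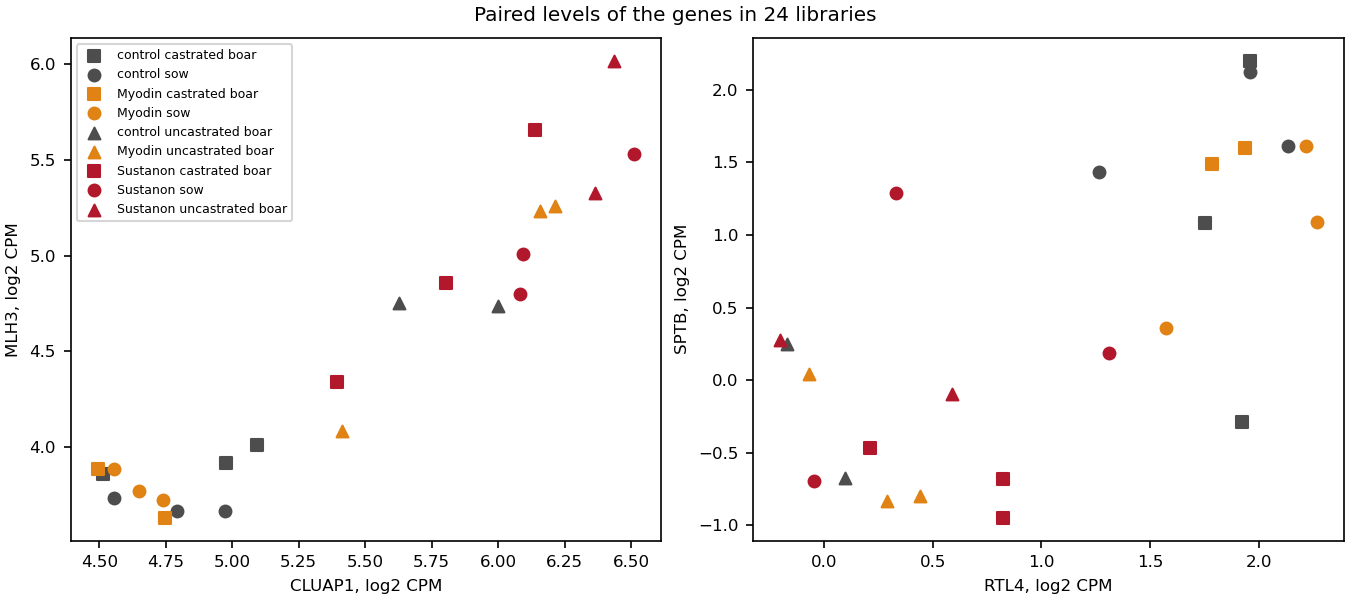
Log2 CPM, with a prior count of 2, of MLH3 (vertical) against CLUAP1 (horizontal) on the left and of SPTB against RTL4 on the right, with 1 point per library, shaped by castration group and coloured by treatment. CLUAP1 and MLH3 rise together among the uncastrated and Sustanon-treated animals (r = 0.88), while RTL4 and SPTB do not (r = -0.14).

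Over all 24 libraries, the named genes with the pattern most like that of each member were found by Pearson's r of log2 CPM, as a description, since all 24 share the division of the groups. CLUAP1 was most like MLH3 (r = 0.94), WASHC3 (r = 0.92) and BCKDHA (r = 0.92). MLH3 was most like CLUAP1 (r = 0.94), DENND3 (r = 0.94) and C12orf29 (r = 0.93), and MTSS1 most like CLUAP1 (r = 0.92), ZFP1 (r = 0.89) and CROT (r = 0.89). For these 8 pairs r after subtracting the group means was between 0.60 and 0.84. RTL4 was most like OARD1 (r = 0.86), MTHFS (r = 0.85) and WWP2 (r = 0.83), and within groups these were 0.68, 0.31 and -0.21. SPTB was most like MCTP1 (r = 0.86), OVGP1 (r = 0.81) and SCAMP1 (r = 0.75), and within groups these were 0.69, 0.66 and 0.38.

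The partners and relatives of the 5 genes were examined from lists of known members, each without the gene itself. Of 46 tested genes in the 7 lists, 0 were called in any of the 8 comparisons by edgeR, and 0 by DESeq2 or limma. Over all genes edgeR called 2.03% for Sustanon in castrated boars and sows and 0.331% for uncastrated against castrated boars. In the other comparisons it called at most 0.0343%. Calls were thus rare over all genes too, and no difference of the lists from all genes is read from this count. At an unadjusted p below 0.05 edgeR gave 7 of the 46 for Sustanon in castrated boars and sows, where 19.8% of all genes were below it, and 8 of the 46 for uncastrated against castrated boars, where 15.6% were. IFT-B, the complex of CLUAP1, had 6 tested genes (IFT172, IFT74, IFT46, IFT27, HSPB11 and IFT22), with log2 fold changes between -0.44 and 0.12 for Sustanon and between -0.19 and 0.08 for uncastrated against castrated boars. The medians were -0.04 and -0.02, beside -0.01 and 0.01 over all genes. The IFT-A complex and the ciliary motors had 9 tested genes with medians of -0.04 and -0.09, and 3 tested Hedgehog genes, which signal through cilia, had medians of 0.03 and 0.05.

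**Figure D4:**
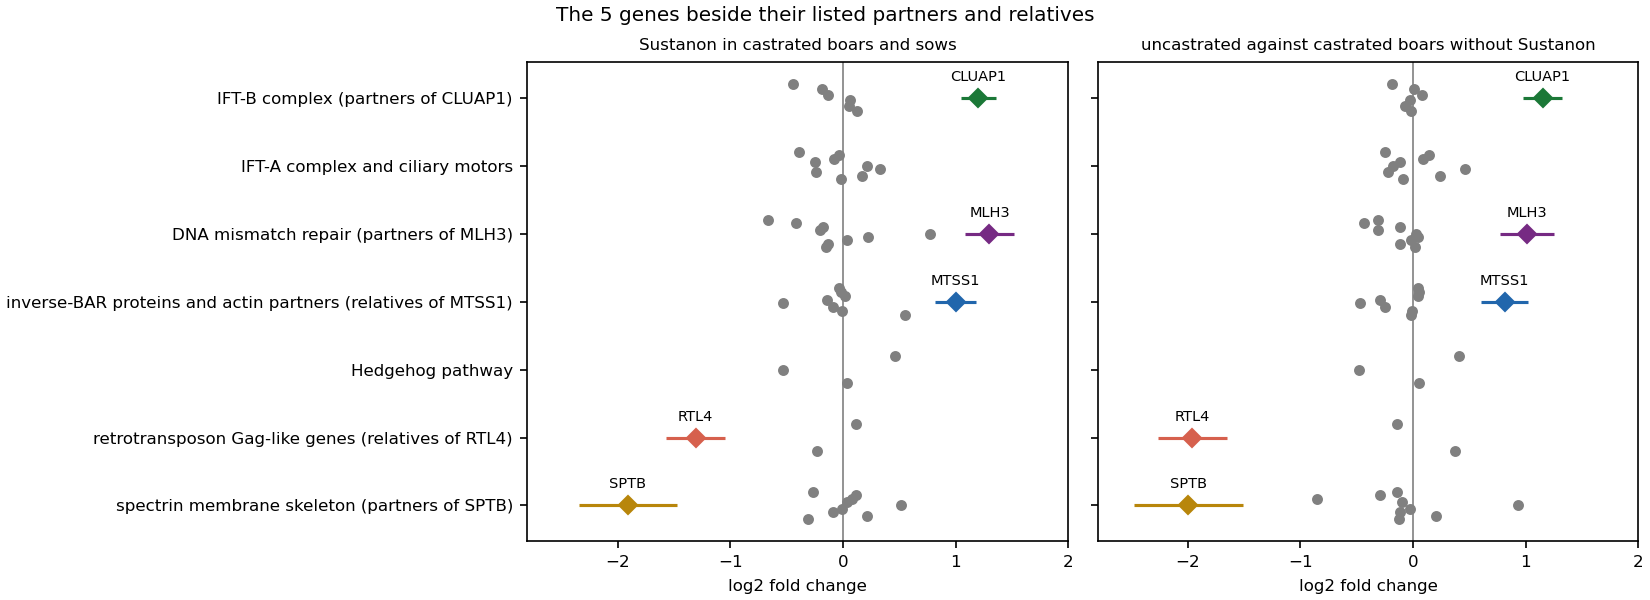
Log2 fold change (horizontal) of the 5 genes (diamonds with standard error) and of the tested genes of their 7 lists (grey points), by list (vertical), for Sustanon in castrated boars and sows (left) and for uncastrated against castrated boars without Sustanon (right). The listed genes lie between -0.85 and 0.93, and each diamond lies farther from 0 than the listed genes beside it; the 5 genes were chosen for these differences.

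Of the mismatch repair genes, 9 were tested beside MLH3, with medians of -0.15 for Sustanon and -0.11 for uncastrated against castrated boars. By edgeR 1 of the 9, not reported here singly, had an adjusted p below 0.05 for Sustanon, under the fold limit, and 0 for uncastrated against castrated boars. It was neither MSH6 nor PMS2. MSH6, which takes part in recognising mismatches, had log2 fold changes of -0.42 (edgeR adjusted p = 0.0737) and -0.44 (edgeR adjusted p = 0.152) in these comparisons. PMS2, a MutL-type protein like MLH3, had 0.23 (edgeR adjusted p = 0.425) and 0.04 (edgeR adjusted p = 0.938).

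Of the inverse-BAR proteins and their actin partners, 8 were tested, with medians of -0.03 and -0.01. MTSS2, the closest relative of MTSS1, had a log2 fold change of -0.03 (SE 0.13) for Sustanon and 0.04 (SE 0.14) for uncastrated against castrated boars, and BAIAP2L1 had -0.53 (edgeR adjusted p = 0.0930) and -0.47 (edgeR adjusted p = 0.261). The retrotransposon Gag-like genes had only 2 tested relatives of RTL4. PEG10 had 0.12 (SE 0.32) and -0.14 (SE 0.35), and RTL6 had -0.23 (SE 0.12) and 0.37 (SE 0.14, edgeR adjusted p = 0.182).

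The spectrin skeleton had 9 tested genes beside SPTB, with medians of 0.03 for Sustanon and -0.11 for uncastrated against castrated boars. SPTBN1, the beta spectrin of most non-erythroid cells, had a log2 fold change of -0.27 (SE 0.12, edgeR adjusted p = 0.189) for Sustanon, and SPTAN1, the non-erythroid alpha spectrin, of -0.09 (SE 0.11). EPB42, which binds the erythroid skeleton and is also among the red blood cell markers, had 0.21 (SE 0.34), and EPB41, which ties spectrin to actin, -0.31 (SE 0.11, edgeR adjusted p = 0.117).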

How the data were processed

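Per the labels and the study's methods, libraries were poly-A selected and stranded, Skewer was used for trimming, and STAR 2.5 for alignment to Sscrofa11.1. The counting tool is not given in the sources used here. The deposited counts are whole reads per gene, without normalization, for 13463 genes in 24 libraries, of which 3779 carry no symbol. The authors also deposited log2(TPM + 1), which was converted back to TPM for levels per length. The 5 genes were found by symbol. The members and the lists of partners and markers were chosen with earlier results of these data known.

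The main test was edgeR's two-sided quasi-likelihood test (version 4.0.16 under R 4.3.3), fitted once to the 9 groups after filterByExpr and TMM. A call needed an adjusted p below 0.05 and a log2 fold change of 1 or more in size. CPM used TMM, and log2 CPM a prior count of 2. The genes named beside the members are the 3 most alike by Pearson's r, and members of the lists. Alternatives were DESeq2 1.42.0, limma 3.58.1 on log2(TPM + 1) and log2(TPM + 0.1), RLE normalization, no filter, only the groups compared, other reference animals, and omission of libraries. The model fits were tested on simulated data. Animals are the replicates, with 2 or 3 per group. Gene spans and older names came from RefSeq, which placed 4 of the 5 genes. Intervals on counts cover counting error only. Some genes of the lists are not reported here singly.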

Additional observations from a re-analysis of the deposited data

Results flagged for a closer look

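SPTB in Sustanon sow 4, at 2.26 CPM, stood apart from the other 5 Sustanon castrated boars and sows, which had between 0.334 and 0.956 CPM. It was the only such library among 30 sets of 4 to 10 libraries examined over the 5 genes, and chance sets about 1 in 20 apart, or 1.5 of 30. The level rests on 21 counts.

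In SPTB, the 6 Sustanon castrated boars and sows lay below the mean of the 6 control castrated boars and sows, and the 2 Sustanon uncastrated boars above the mean of the 2 control uncastrated boars, with mean deviations 1.89 apart on the log2 scale. This difference was not tested. The value in castrated boars and sows was among those that chose the gene, and that in uncastrated boars was 0.32 (SE 0.80) and turned to -0.15 without control uncastrated boar 25.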

How the results depend on the processing

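The log2 fold changes of the 5 genes for Sustanon in castrated boars and sows, and for uncastrated against castrated boars, kept their direction under every alternative, and none of the 5 was called under any alternative of the comparisons of Myodin, of sows with castrated boars or of the Sustanon response between them. The counts of called genes over the whole table depended more on the setting; the causes were not tested. With Sustanon in castrated boars and sows 178 genes were called, 52 without the 3 libraries with Y-linked counts against their labels, and 122 to 205 with single animals left out. For uncastrated against castrated boars 29 were called, 51 with control libraries only, 71 by DESeq2, 5 with only the groups compared, and 15 without the 3 libraries as well as 15 without the library the heatmap omits. Leaving out single animals gave 8 (without control uncastrated boar 27) to 100 (without Myodin uncastrated boar 22). For Sustanon in uncastrated boars 0 were called, 44 by DESeq2, 4 by limma with pseudocount 0.1, 5 with pseudocount 1, 32 with only the groups compared, 4 with the other reference animals, and 0 to 20 (without Myodin uncastrated boar 23) with single animals left out. For Myodin in castrated boars and sows 3 were called, 28 by DESeq2, 0 by limma with pseudocount 1, 8 with only the groups compared, 0 without the 3 libraries, 0 without the omitted library, and 0 (without control castrated boar 14, for example) to 6 (without Myodin uncastrated boar 23) with single animals left out. For Myodin in uncastrated boars 2 were called, 32 by DESeq2, 4 by limma with pseudocount 1, 0 with only the groups compared, and 1 (without control uncastrated boar 25) to 99 (without Myodin uncastrated boar 22) with single animals left out. For sows against castrated boars 0 were called, 3 by DESeq2, 10 without the 3 libraries, and 0 with single animals left out. For the Sustanon response in sows minus that in castrated boars 0 were called, and 0 to 6 (without control sow 17) with single animals left out. For Sustanon-injected animals against own testes 2 were called, 18 by DESeq2, 5 without the filter, 10 with only the groups compared, 0 with Sustanon castrated boars only, 12 without the 3 libraries, 6 without the omitted library, and 0 (without control uncastrated boar 25, for example) to 8 (without control sow 17) with single animals left out.

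Some differences that were not past the threshold changed sign. Without the 3 libraries RTL4 had a log2 fold change of -0.045 for Myodin in castrated boars and sows, and -0.30 for the sow difference in the Sustanon response. By limma with pseudocounts 1 and 0.1, Myodin in uncastrated boars gave -0.048 and -0.050 for CLUAP1, -0.065 and -0.078 for MLH3 and -0.19 and -0.19 for MTSS1. By the same settings, sows against castrated boars gave 0.017 and 0.079 for SPTB, and the sow difference in the Sustanon response gave -0.059 and -0.15 for RTL4 and, with pseudocount 1, -0.010 for SPTB. With Sustanon castrated boars only, the comparison with own testes gave -0.090 for CLUAP1 and -0.52 for SPTB. With single animals left out, the ranges that crossed 0 were, for Sustanon in uncastrated boars, -0.22 (without Sustanon uncastrated boar 20) to 0.72 for RTL4 and -0.15 (without control uncastrated boar 25) to 0.995 (without control uncastrated boar 27) for SPTB. For Myodin in castrated boars and sows they were -0.10 to 0.031 (without Myodin castrated boar 9) for MLH3, -0.014 (without control sow 16) to 0.20 for RTL4, and -0.46 to 0.20 (without control castrated boar 13) for SPTB. For Myodin in uncastrated boars they were -0.030 to 0.36 for CLUAP1 and -0.33 to 0.20 for MTSS1, both below 0 without Myodin uncastrated boar 23 and without control uncastrated boar 27, and -0.88 to 0.31 (without control uncastrated boar 27) for SPTB. For sows against castrated boars they were -0.12 to 0.028 for CLUAP1 (above 0 without Myodin castrated boar 9, control castrated boar 14 or control sow 16), -0.022 (without control sow 17) to 0.19 for RTL4, and -0.24 to 0.42 for SPTB (above 0 without Myodin castrated boar 8, Myodin sow 12, control castrated boar 13, control sow 16 or control sow 17). The sow difference in the Sustanon response was -0.55 to 0.33 for RTL4 (below 0 without Sustanon castrated boar 2, Sustanon sow 5, control castrated boar 13 or control sow 16), and the comparison with own testes -0.19 to 0.54 for SPTB (below 0 without Sustanon sow 4 or control uncastrated boar 25). No paired analysis was possible because the animal numbers differ between all groups, so that no pair of groups shares a number. The pseudocount mattered most for the scarce genes, where limma with pseudocount 1 gave -0.57 for RTL4 and -0.34 for SPTB with Sustanon, and -0.72 and -0.33 for uncastrated against castrated boars, since it shrinks low levels. At that setting these 2 genes did not reach the fold limit even there. Their lack of a call by it in the other comparisons therefore carries little weight. Counts of 4 to 60 per library limit what can be said of RTL4 and SPTB, and groups of 2 or 3 animals limit every comparison.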
